A study of Homo sapiens with 8 samples.

Results

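The mitochondrially encoded genes are the genes carried on the mitochondrial chromosome itself, and they were taken here as every gene whose symbol begins with MT-. They numbered 37 of the 36779 genes in the deposited tables, namely 13 messages for proteins of the respiratory chain, 2 ribosomal RNAs and 22 tRNAs, and all 37 were listed in both tables of counts. RNA was sequenced from PC3 and DU145, human prostate cancer cell lines, transfected with an expression plasmid carrying circ0003553 (a circular RNA, in libraries titled RCAN3), with one carrying circ0004592 (a circular RNA, in libraries titled STK3), or with a negative control (NC) plasmid. There were 8 libraries, 1 for each circRNA in each line and 2 NC libraries in each line, 1 per arm, called here the RCAN3-arm NC and the STK3-arm NC. All 8 libraries thus came from cells that had received a plasmid, the dose and time of transfection were not given in the sources used here. The labels do not say that the libraries came from separate cultures, so p-values measure the spread between these libraries, which may be technical.

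The human mitochondrial genome is a small circle that lacks introns and is read from both strands as long RNAs. Transcription of the heavy strand starts just before MT-TF, and the resulting RNA carries MT-TF, both ribosomal RNAs and nearly all messages in one line, with tRNAs lying between them as cleavage points. The opposite transcript carries MT-ND6 and a few tRNAs. Of the 37 genes, 28 were annotated on the plus strand, as read from the heavy-strand transcript, and 9 on the minus strand, namely MT-ND6 and 8 tRNAs. The products are core subunits of complexes I, III, IV and V of oxidative phosphorylation and the RNAs needed to translate them inside the organelle.

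The tRNAs below bound the regions in which the changes differed most, and are given from GENCODE 29 on GRCh38, 5′ to 3′ of the RNA strand, with the anticodon that a search for its stem and loop found in capitals. MT-TF (MT:577-647, plus strand) opens the heavy-strand transcript, MT-TV (MT:1602-1670, plus) lies between the ribosomal RNAs, and MT-TL1 (MT:3230-3304, plus) lies between MT-RNR2 and MT-ND1. MT-TT (MT:15888-15953, plus) and MT-TP (MT:15956-16023, minus) face each other at the far end of the gene array.
MT-TF: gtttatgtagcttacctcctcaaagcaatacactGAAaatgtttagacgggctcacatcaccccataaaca
MT-TV: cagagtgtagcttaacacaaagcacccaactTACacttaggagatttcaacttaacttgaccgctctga
MT-TL1: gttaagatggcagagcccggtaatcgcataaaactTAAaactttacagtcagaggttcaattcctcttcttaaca
MT-TT: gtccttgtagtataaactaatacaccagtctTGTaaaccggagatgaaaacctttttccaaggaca
MT-TP: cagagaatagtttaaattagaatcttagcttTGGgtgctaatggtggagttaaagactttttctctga
These tRNAs carry phenylalanine, valine, leucine, threonine and proline. The tRNA genes were 59 to 75 bases long, shorter than the reads of 150 bases, so counts on them cannot be told apart into mature tRNAs and longer RNAs that run through them.

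A pair of messages share sequence, which limits how their counts can be read. MT-ATP8 and MT-ATP6 overlap by 46 bases in different reading frames, shown in capitals at the end of MT-ATP8 (MT:8513-8572) and at the start of MT-ATP6 (MT:8527-8586), both on the plus strand.
MT-ATP8 end: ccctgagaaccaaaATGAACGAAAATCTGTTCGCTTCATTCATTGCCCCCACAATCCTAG
MT-ATP6 start: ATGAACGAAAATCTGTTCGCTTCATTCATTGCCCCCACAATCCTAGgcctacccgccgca
MT-ND4L and MT-ND4 overlap by 7 bases. The handling of reads in such overlaps, and whether strand was used in counting, were not given in the sources used here, so counts of overlapping genes and of neighbours on opposite strands may be shared. Messages such as MT-ND2 (ending ctaataatcttaT), MT-CO3 (tgatgagggtctT) and MT-CYB (ctcaaatgggccT) stop at 1 base of their last codon, printed in capitals, and need a poly(A) tail to complete it. Of the 13 messages, 5 ended in this way, 1 ended after 2 bases and 7 held whole codons.

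Total counts per library ran between 33444940 and 49926342. CTNNA1, which PC3 is known to have lost, was at 3.78 to 4.57 CPM (counts scaled to a common library total) in PC3 libraries, against 397 to 416 CPM in DU145 libraries. KRT8 and KRT18, epithelial keratins, were detected in all 8 libraries at 127 CPM or more, and PTPRC, a leukocyte marker, was at 0.06 CPM or less. EPCAM, also epithelial, was detected in all 8 libraries. CDH1, another epithelial marker, was at 0.714 to 1.18 CPM in PC3 libraries, against 39.9 to 64.8 CPM in DU145 libraries. COL1A1, a fibroblast marker, was at 21.5 to 27.6 CPM in PC3 libraries and 1.75 to 2.81 CPM in DU145 libraries. The other fibroblast markers listed were near or at 0 CPM. COL1A2 was at 0 CPM in PC3 libraries and 0 to 0.0593 CPM in DU145 libraries. PDGFRB was at 0.0282 to 0.0598 CPM in PC3 libraries and 0 to 0.200 CPM in DU145 libraries. The STK3-arm NC minus the RCAN3-arm NC gave a median log2 difference of -0.05 in PC3, with a range of -0.35 (MT-TH) to 0.33 (MT-TF), and of 0.07 in DU145, with a range of -0.17 (MT-TV) to 0.24 (MT-ND2).

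PC3 cells with either circRNA devoted a smaller share of their counts to mitochondrially encoded genes than PC3 cells with the NC plasmid, and DU145 cells with circ0003553 a larger one. In PC3 the share of the library total was 4.94% with circ0003553 (exact binomial 95% interval 4.93 to 4.95%) and 6.08% with circ0004592 (6.07 to 6.09%), against 7.97% in the RCAN3-arm NC and 7.75% in the STK3-arm NC. In DU145 it was 6.55% with circ0003553 (6.54 to 6.56%) and 5.50% with circ0004592 (5.49 to 5.51%), against 4.96% in the RCAN3-arm NC and 5.27% in the STK3-arm NC. Both PC3 circRNA libraries lay below both PC3 NC libraries, and both DU145 circRNA libraries lay above both DU145 NC libraries. Over the NC of the same arm, the ratio of shares was 0.620 for circ0003553 and 0.784 for circ0004592 in PC3, and 1.32 for circ0003553 and 1.04 for circ0004592 in DU145. In bulk libraries such as these, fewer cells with the RNA and less RNA per cell cannot be told apart. The intervals were computed with counts and totals divided by 2, and they cover counting error only. An exact permutation test of 1 library against 2 cannot give a p below 0.333.

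The classes of RNA did not follow the total alike. Messages made up 3.80% of counts with circ0003553 and 4.76% with circ0004592 in PC3, against 6.59% and 6.41% in the RCAN3-arm and STK3-arm NC. In DU145 they made up 5.73% with circ0003553 and 4.62% with circ0004592, against 4.15% and 4.48% in the NC libraries. The ribosomal RNAs moved less, with 0.983% and 1.14% in PC3 with circ0003553 and circ0004592, against 1.18% and 1.14% in the NC libraries. In DU145 the ribosomal RNAs held 0.611% with circ0003553 and 0.698% with circ0004592, against 0.653% and 0.619% in the NC libraries, so that the circ0003553 library, which had the most message counts in DU145, had the smallest ribosomal share. The tRNAs held 0.157% and 0.179% in PC3 with circ0003553 and circ0004592, against 0.207% and 0.208% in the NC libraries, and in DU145 0.213% and 0.180% with the circRNAs, against 0.162% and 0.171% in the NC libraries. The minus strand kept nearly the same ratio to the plus strand in PC3, at 0.0518 with each circRNA, against 0.0520 and 0.0536 in the NC libraries. In DU145 that ratio was above both NC libraries in both circRNA libraries. It was 0.0734 with circ0003553 and 0.0702 with circ0004592, against 0.0677 and 0.0683 in the NC libraries.

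**Figure D1:**
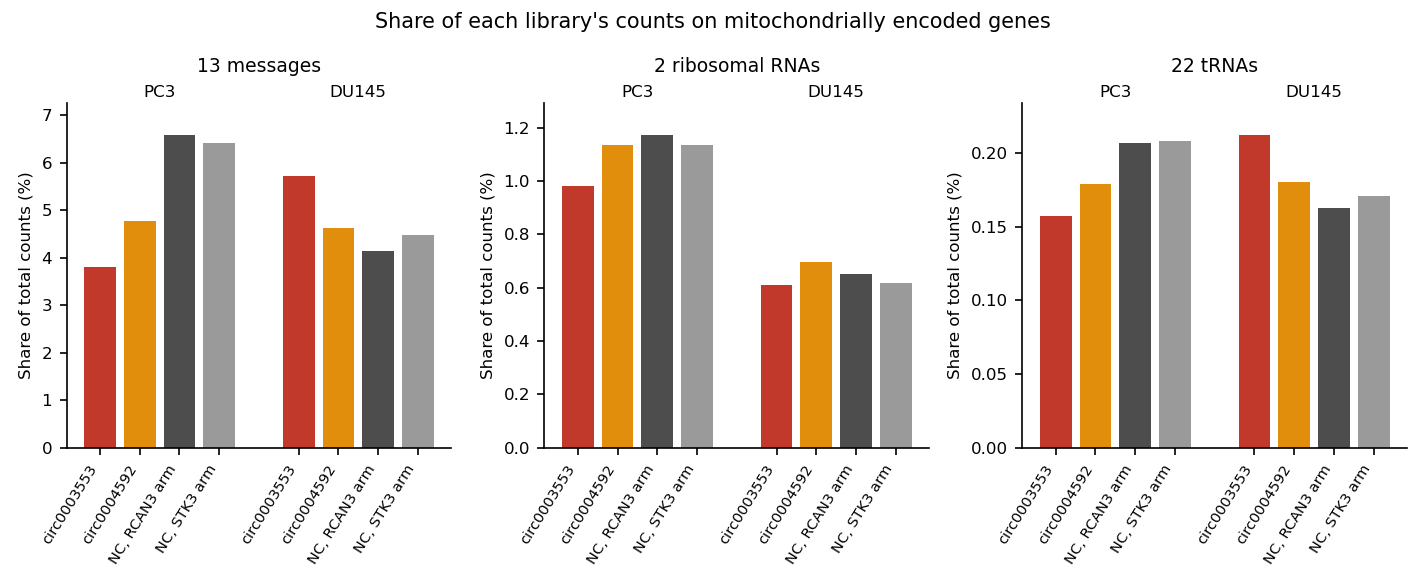
Share of each library's total counts (%, vertical axis) on the 13 messages, the 2 ribosomal RNAs and the 22 tRNAs of the mitochondrial genome, 1 bar per library, with circRNA libraries left of the NC libraries of the same line. Messages stood at 3.80% and 4.76% in the PC3 circRNA libraries, against 6.59% and 6.41% in the PC3 NC libraries, while the DU145 library with circ0003553 stood highest in its line at 5.73%.

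Tests of single genes used read counts in edgeR's quasi-likelihood test over 17877 genes, with libraries in 6 groups of line and treatment. A change is a log2 difference with its SE, and the threshold is a Benjamini-Hochberg adjusted p of 0.05 over all genes tested. The spread came from the 2 NC libraries of each line, and a circRNA library, alone in its group, was taken to vary as they do. In PC3 with circ0003553, 36 of the 37 genes passed, 2 higher and 34 lower, where 28.8% of all genes tested passed (14.3% higher and 14.5% lower). In PC3 with circ0004592, 30 passed, 2 higher and 28 lower, where 25.7% of all genes passed (12.3% higher and 13.5% lower). In that comparison DESeq2 called 15 members and 12.7% of all genes, and limma on log2(RPKM + 0.1) called 18 members and 14.8% of all genes. In DU145 with circ0003553, 34 passed and all 34 were higher, where 10.9% of all genes passed (4.62% higher and 6.27% lower). In DU145 with circ0004592, 19 passed and all 19 were higher, where 10.4% of all genes passed (5.93% higher and 4.51% lower). With limma on log2(RPKM + 0.1), 0 of the 37 and 0 of all 17877 genes passed in either DU145 comparison. DESeq2 called 28 members and 4.59% of all genes with circ0003553 in DU145, and 13 members and 4.67% of all genes with circ0004592. Values of the NC libraries are given for the RCAN3 arm and then the STK3 arm. The median change over the 37 genes was -0.61 with circ0003553 and -0.31 with circ0004592 in PC3, and 0.41 with circ0003553 and 0.18 with circ0004592 in DU145, against medians over all genes tested of -0.03, -0.03, 0.00 and 0.00. Without the RCAN3-arm NC of DU145, the median with circ0004592 in DU145 was 0.11.

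The ribosomal RNAs differed in direction: MT-RNR1 rose with each circRNA in each line, whereas MT-RNR2 fell with circ0003553 in PC3 and rose with circ0004592 in DU145. MT-RNR1 encodes the RNA of the small mitochondrial ribosomal subunit (MT:648-1601). MT-RNR1 had 189 CPM with circ0003553 and 238 CPM with circ0004592 in PC3, against 151 and 165 CPM in the NC libraries. In DU145, MT-RNR1 had 157 CPM with circ0003553 and 159 CPM with circ0004592, against 120.0 and 116 CPM in the NC libraries. It was higher in every circRNA library than in either NC library of its line, with changes of 0.29 ± 0.06 and 0.60 ± 0.06 with circ0003553 and circ0004592 in PC3 and of 0.39 ± 0.06 and 0.49 ± 0.06 in DU145 (edgeR adjusted p = 0.000952, 3.27e-08, 0.000194 and 1.97e-05 in that order). MT-RNR2 encodes the RNA of the large subunit (MT:1671-3229). MT-RNR2 had 9645 CPM with circ0003553 and 11115 CPM with circ0004592 in PC3, against 11599 and 11198 CPM in the NC libraries. In DU145, MT-RNR2 had 5951 CPM with circ0003553 and 6822 CPM with circ0004592, against 6407 and 6073 CPM in the NC libraries. Its log2 change was -0.21 ± 0.05 with circ0003553 in PC3 and 0.18 ± 0.05 with circ0004592 in DU145, and it had -0.02 ± 0.05 with circ0004592 in PC3 and -0.10 ± 0.05 with circ0003553 in DU145, which did not pass. With the arm as a term in the fit, MT-RNR2 was called lower with circ0003553 in DU145 (-0.13). Its call with circ0004592 in DU145 was lost without the STK3-arm NC of DU145 (0.15). Per length, MT-RNR1 lay far below MT-RNR2 in every library, at 158 and 173 RPKM (reads scaled by gene length and library total) against 7439.9 and 7183 RPKM in the PC3 NC libraries. Ribosomal RNA had been removed before library preparation, and the part of that step in these levels was not tested.

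Complex I, the NADH dehydrogenase that feeds electrons into the chain, has 7 subunits encoded here. All 7 messages fell in PC3 with each circRNA and all 7 rose in DU145 with circ0003553. With circ0004592 in DU145, MT-ND1, MT-ND2, MT-ND5 and MT-ND6 rose and the other 3 did not pass. Both PC3 circRNA libraries lay below both PC3 NC libraries for each of these messages, the circ0003553 library lowest, and the DU145 circ0003553 library lay above every other DU145 library. MT-ND1 had 4079.7 CPM with circ0003553 and 5356 CPM with circ0004592 in PC3, against 6392 and 5866 CPM in the NC libraries. In DU145, MT-ND1 had 4439 CPM with circ0003553 and 3835 CPM with circ0004592, against 2961 and 3362 CPM in the NC libraries. MT-ND1 (MT:3307-4262) fell least of the 7 in PC3, by 0.55 ± 0.06 with circ0003553 and by 0.18 ± 0.06 with circ0004592, and rose by 0.46 ± 0.06 and 0.33 ± 0.06 in DU145. MT-ND2 had 3535 CPM with circ0003553 and 4676 CPM with circ0004592 in PC3, against 6046 and 5661 CPM in the NC libraries. In DU145, MT-ND2 had 4613 CPM with circ0003553 and 3478 CPM with circ0004592, against 2861 and 3368 CPM in the NC libraries. The changes of MT-ND2 (MT:4470-5511) were -0.69 ± 0.07 and -0.31 ± 0.07 with circ0003553 and circ0004592 in PC3 and 0.54 ± 0.06 and 0.21 ± 0.07 in DU145, and its rise with circ0003553 was the largest of the 13 messages in DU145. MT-ND3 had 452 CPM with circ0003553 and 620.0 CPM with circ0004592 in PC3, against 839 and 801 CPM in the NC libraries. In DU145, MT-ND3 had 693 CPM with circ0003553 and 479 CPM with circ0004592, against 505 and 538 CPM in the NC libraries. MT-ND3 (MT:10059-10404), the message with the fewest counts, had -0.83 ± 0.06 and -0.39 ± 0.06 in PC3, and 0.38 ± 0.06 with circ0003553 and -0.07 ± 0.06 with circ0004592 in DU145, the last not past the threshold, with the DU145 circ0004592 library below both NC libraries. Without the RCAN3-arm NC of PC3, MT-ND1 had -0.10 with circ0004592 in PC3 and did not pass. MT-ND2 with circ0004592 in DU145 had 0.10 without the RCAN3-arm NC of DU145, which did not pass, and 0.34 without the STK3-arm NC.

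MT-ND4L and MT-ND4 lie on one bicistronic message. MT-ND4L had 1326 CPM with circ0003553 and 1489 CPM with circ0004592 in PC3, against 2250.2 and 2071 CPM in the NC libraries. In DU145, MT-ND4L had 2089 CPM with circ0003553 and 1720.2 CPM with circ0004592, against 1515 and 1676 CPM in the NC libraries. Their changes were close, at -0.67 ± 0.06 for MT-ND4L (MT:10470-10766) and -0.73 ± 0.06 for MT-ND4 (MT:10760-12137) with circ0003553 in PC3. MT-ND4 had 4503 CPM with circ0003553 and 5537 CPM with circ0004592 in PC3, against 7905 and 7389.6 CPM in the NC libraries. In DU145, MT-ND4 had 7349.9 CPM with circ0003553 and 5649 CPM with circ0004592, against 4933 and 5607 CPM in the NC libraries. With circ0004592 in DU145, MT-ND4L had 0.16 ± 0.06 and MT-ND4 0.16 ± 0.06, and neither passed. MT-ND5 (MT:12337-14148, plus strand) and MT-ND6 (MT:14149-14673, minus strand) abut each other from opposite strands. MT-ND5 had 3270.0 CPM with circ0003553 and 4134 CPM with circ0004592 in PC3, against 5897 and 5775 CPM in the NC libraries. In DU145, MT-ND5 had 5953 CPM with circ0003553 and 4907 CPM with circ0004592, against 4101 and 4272 CPM in the NC libraries. MT-ND5 changed by -0.80 ± 0.05 and -0.48 ± 0.05 in PC3 with circ0003553 and circ0004592 and by 0.48 ± 0.05 and 0.28 ± 0.05 in DU145. MT-ND6 had 1487 CPM with circ0003553 and 1961 CPM with circ0004592 in PC3, against 2776 and 2700.2 CPM in the NC libraries. In DU145, MT-ND6 had 3048 CPM with circ0003553 and 2424 CPM with circ0004592, against 2041 and 2167 CPM in the NC libraries. MT-ND6, the single message of the light-strand transcript, changed by -0.85 ± 0.05 and -0.47 ± 0.05 in PC3 and by 0.51 ± 0.05 and 0.26 ± 0.05 in DU145, all past the threshold. The ratio of MT-ND6 to MT-ND5 counts lay between 0.455 and 0.512 over all 8 libraries.

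Cytochrome b, encoded by MT-CYB (MT:14747-15887), is the catalytic core of complex III, which passes electrons from ubiquinol to cytochrome c. MT-CYB had 1192 CPM with circ0003553 and 1534 CPM with circ0004592 in PC3, against 2448 and 2423 CPM in the NC libraries. In DU145, MT-CYB had 2496 CPM with circ0003553 and 1986 CPM with circ0004592, against 1794 and 2019 CPM in the NC libraries. MT-CYB had the largest fall of the 37 genes with each circRNA in PC3, with log2 changes of -1.00 ± 0.06 (edgeR adjusted p = 2.21e-12) with circ0003553 and -0.65 ± 0.06 (edgeR adjusted p = 5.65e-09) with circ0004592. In DU145 it rose by 0.36 ± 0.06 with circ0003553 and had 0.11 ± 0.06 with circ0004592, which did not pass, its library lying between the NC libraries.

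MT-CO1, MT-CO2 and MT-CO3 encode the catalytic core of complex IV, cytochrome c oxidase. All 3 fell in PC3 with each circRNA and rose in DU145 with circ0003553, and none of the 3 passed in DU145 with circ0004592. MT-CO1 had 4431 CPM with circ0003553 and 5553 CPM with circ0004592 in PC3, against 6823 and 6921 CPM in the NC libraries. In DU145, MT-CO1 had 6073 CPM with circ0003553 and 4371 CPM with circ0004592, against 4275 and 4471 CPM in the NC libraries. MT-CO1 (MT:5904-7445), which binds copper and haem, had changes of -0.60 ± 0.05 and -0.29 ± 0.05 in PC3 with circ0003553 and circ0004592 and of 0.45 ± 0.05 and 0.05 ± 0.05 in DU145. MT-CO2 had 1096 CPM with circ0003553 and 1393 CPM with circ0004592 in PC3, against 1852 and 1853 CPM in the NC libraries. In DU145, MT-CO2 had 2144 CPM with circ0003553 and 1489 CPM with circ0004592, against 1525 and 1566 CPM in the NC libraries. MT-CO2 (MT:7586-8269), which takes electrons from cytochrome c, had -0.72 ± 0.05 and -0.39 ± 0.05 in PC3 and 0.44 ± 0.05 and 0.00 ± 0.05 in DU145, where the circ0004592 library lay just below both NC libraries. MT-CO3 had 4573 CPM with circ0003553 and 5735 CPM with circ0004592 in PC3, against 8397 and 8802 CPM in the NC libraries. In DU145, MT-CO3 had 5445 CPM with circ0003553 and 4619.6 CPM with circ0004592, against 4561 and 4663 CPM in the NC libraries. MT-CO3 (MT:9207-9990) fell by 0.88 ± 0.05 and 0.57 ± 0.05 in PC3 and had 0.21 ± 0.05 and 0.06 ± 0.05 in DU145, where the DU145 circ0004592 library lay between the NC libraries.

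MT-ATP8 and MT-ATP6 encode membrane subunits of complex V, the ATP synthase, from one bicistronic message. MT-ATP8 had 2125 CPM with circ0003553 and 2487 CPM with circ0004592 in PC3, against 3786 and 3577 CPM in the NC libraries. In DU145, MT-ATP8 had 3751 CPM with circ0003553 and 2881 CPM with circ0004592, against 2871 and 2992 CPM in the NC libraries. MT-ATP8 (MT:8366-8572) had changes of -0.76 ± 0.05 and -0.55 ± 0.05 in PC3 with circ0003553 and circ0004592 and of 0.33 ± 0.05 and 0.03 ± 0.05 in DU145, the last not past the threshold. MT-ATP6 had 5960.1 CPM with circ0003553 and 7152 CPM with circ0004592 in PC3, against 10479 and 10223 CPM in the NC libraries. In DU145, MT-ATP6 had 9175 CPM with circ0003553 and 8359 CPM with circ0004592, against 7524 and 8058 CPM in the NC libraries. MT-ATP6 (MT:8527-9207), which forms the proton channel, had -0.76 ± 0.05 and -0.52 ± 0.05 in PC3 and 0.21 ± 0.05 and 0.16 ± 0.05 in DU145, all past the threshold. Without the RCAN3-arm NC of DU145, MT-ATP6 had 0.16 and 0.10 in DU145 with circ0003553 and circ0004592, and neither passed. Per length these were the most abundant of the 37 genes in every library, with 10266 and 12012 RPKM for MT-ATP8 in the PC3 circRNA libraries, against 18289 and 17280.1 RPKM in the PC3 NC libraries. MT-ATP8 is 207 bases long, against reads of 150 bases, and shares 46 bases with MT-ATP6. Its value per length may thus include reads that run in from its neighbours.

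**Figure D2:**
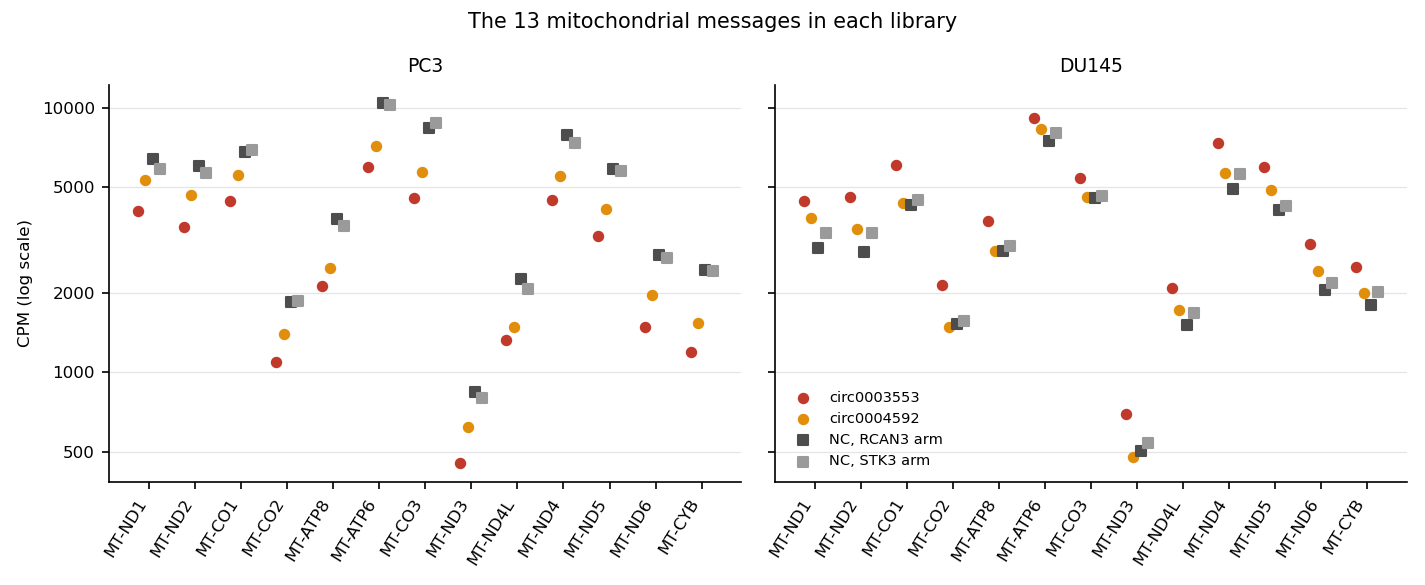
CPM (vertical axis, log scale) of the 13 messages in PC3 (left) and DU145 (right), 1 point per library, with circRNA libraries as circles and NC libraries as squares. In PC3 the circ0003553 library was lowest for every message, down to 452 CPM for MT-ND3, and both circRNA libraries lay below both NC libraries, while in DU145 the circ0003553 library was highest for every message.

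The plus-strand tRNAs did not all change in one direction. MT-TF, the first gene of the heavy-strand transcript, rose in PC3 while MT-TT, its last, fell. MT-TF had 16.0 CPM with circ0003553 and 23.3 CPM with circ0004592 in PC3, against 7.12 and 9.06 CPM in the NC libraries. In DU145, MT-TF had 7.41 CPM with circ0003553 and 8.62 CPM with circ0004592, against 5.40 and 5.59 CPM in the NC libraries. The changes of MT-TF were 1.02 ± 0.14 and 1.54 ± 0.13 in PC3 with circ0003553 and circ0004592 (edgeR adjusted p = 3.14e-06 and 1.78e-09) and 0.71 ± 0.15 in DU145 with circ0004592 (edgeR adjusted p = 0.00405). With circ0003553 in DU145 it had 0.41 ± 0.15 and did not pass (edgeR adjusted p = 0.0814), though each circRNA library of each line lay above both NC libraries. The call with circ0004592 in DU145 was lost when either NC library of DU145 was left out (0.68 and 0.73). MT-TF is low in counts, with 213 to 780 reads per library. MT-TV had 69.9 CPM with circ0003553 and 72.0 CPM with circ0004592 in PC3, against 69.5 and 67.8 CPM in the NC libraries. In DU145, MT-TV had 45.8 CPM with circ0003553 and 57.9 CPM with circ0004592, against 51.4 and 45.5 CPM in the NC libraries. MT-TV, between the ribosomal RNAs, passed in DU145 with circ0004592 (0.31 ± 0.08) and in no other comparison of a circRNA with NC. MT-TL1 had 148 CPM with circ0003553 and 195 CPM with circ0004592 in PC3, against 198 and 183 CPM in the NC libraries. In DU145, MT-TL1 had 64.1 CPM with circ0003553 and 67.2 CPM with circ0004592, against 48.0 and 54.1 CPM in the NC libraries. MT-TL1, whose sequence holds the site of the transcription terminator MTERF1, had -0.33 ± 0.07 and 0.05 ± 0.07 in PC3 with circ0003553 and circ0004592, the second not past the threshold, and 0.30 ± 0.07 and 0.45 ± 0.08 in DU145, both past it. MT-TV with circ0004592 lost its call without the STK3-arm NC of DU145 (0.23), and MT-TL1 with circ0003553 lost its call without the RCAN3-arm NC of DU145 (0.22).

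The remaining plus-strand tRNAs, which start at MT-TI (MT:4263-4331), fell in PC3 with circ0003553 by 0.44 ± 0.09 (MT-TS2) to 0.78 ± 0.06 (MT-TK), and all 11 passed. With circ0004592 in PC3 their changes lay between -0.50 ± 0.06 (MT-TK) and -0.22 ± 0.08 (MT-TR), and 10 of the 11 passed, the exception being MT-TM (-0.39 ± 0.15). In DU145 with circ0003553 all 11 rose, by 0.34 ± 0.11 (MT-TI) to 0.72 ± 0.08 (MT-TG). In DU145 with circ0004592 they were divided. MT-TI, MT-TM, MT-TG, MT-TR, MT-TH, MT-TS2, MT-TL2 and MT-TT rose by 0.53 or more, while MT-TW (0.21 ± 0.10), MT-TD (-0.16 ± 0.10) and MT-TK (-0.16 ± 0.06) did not pass. With library totals in place of TMM scaling, MT-TK was called lower there (-0.22), and likewise without either PC3 NC library (-0.17). MT-TI had 9.25 CPM with circ0003553 and 12.1 CPM with circ0004592 in PC3, against 16.4 and 14.8 CPM in the NC libraries. In DU145, MT-TI had 18.8 CPM with circ0003553 and 20.4 CPM with circ0004592, against 14.8 and 14.4 CPM in the NC libraries. MT-TI, the isoleucine tRNA, was below the NC libraries in both PC3 circRNA libraries and above them in both DU145 ones, as was MT-TM, the methionine tRNA. MT-TM had 6.01 CPM with circ0003553 and 6.64 CPM with circ0004592 in PC3, against 9.10 and 8.55 CPM in the NC libraries. In DU145, MT-TM had 9.95 CPM with circ0003553 and 9.40 CPM with circ0004592, against 6.70 and 6.37 CPM in the NC libraries. MT-TW, MT-TD and MT-TK carry tryptophan, aspartate and lysine, and in DU145 the circ0003553 library was highest for each.

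MT-TW had 18.6 CPM with circ0003553 and 21.3 CPM with circ0004592 in PC3, against 25.8 and 28.3 CPM in the NC libraries. In DU145, MT-TW had 32.1 CPM with circ0003553 and 24.8 CPM with circ0004592, against 23.2 and 21.2 CPM in the NC libraries. MT-TD (MT:7518-7585) and MT-TK (MT:8295-8364) flank MT-CO2, and the DU145 circ0004592 library was the lowest of its line for both. MT-TD had 15.6 CPM with circ0003553 and 20.5 CPM with circ0004592 in PC3, against 28.9 and 25.2 CPM in the NC libraries. In DU145, MT-TD had 34.0 CPM with circ0003553 and 22.1 CPM with circ0004592, against 26.2 and 25.0 CPM in the NC libraries. Both PC3 circRNA libraries lay below both PC3 NC libraries for each. MT-TK had 106 CPM with circ0003553 and 129.9 CPM with circ0004592 in PC3, against 187 and 184 CPM in the NC libraries. In DU145, MT-TK had 202 CPM with circ0003553 and 134 CPM with circ0004592, against 161 and 151 CPM in the NC libraries. The glycine tRNA gene lies further along, between MT-CO3 and MT-ND3. MT-TG had 41.6 CPM with circ0003553 and 55.6 CPM with circ0004592 in PC3, against 69.8 and 62.3 CPM in the NC libraries. In DU145, MT-TG had 54.0 CPM with circ0003553 and 51.3 CPM with circ0004592, against 31.0 and 33.6 CPM in the NC libraries. MT-TG (MT:9991-10058) was thus higher in both DU145 circRNA libraries than in both NC libraries, though its neighbours MT-CO3 and MT-ND3 had 0.06 ± 0.05 and -0.07 ± 0.06 with circ0004592. MT-TT had 34.3 CPM with circ0003553 and 39.2 CPM with circ0004592 in PC3, against 47.2 and 50.9 CPM in the NC libraries. In DU145, MT-TT had 30.7 CPM with circ0003553 and 30.9 CPM with circ0004592, against 19.4 and 18.6 CPM in the NC libraries. MT-TT rose by 0.66 ± 0.09 and 0.75 ± 0.09 in DU145 with circ0003553 and circ0004592, next to MT-CYB at 0.36 ± 0.06 and 0.11 ± 0.06. MT-TH, MT-TS2 and MT-TL2 lie in one run (MT:12138-12336) and moved nearly alike. MT-TH had 45.7 CPM with circ0003553 and 52.8 CPM with circ0004592 in PC3, against 73.1 and 58.1 CPM in the NC libraries. In DU145, MT-TH had 59.2 CPM with circ0003553 and 58.7 CPM with circ0004592, against 37.7 and 41.0 CPM in the NC libraries. MT-TH carries histidine, and the other two carry serine and leucine. MT-TS2 had 42.3 CPM with circ0003553 and 48.3 CPM with circ0004592 in PC3, against 64.5 and 53.3 CPM in the NC libraries. In DU145, MT-TS2 had 51.1 CPM with circ0003553 and 49.1 CPM with circ0004592, against 33.0 and 34.1 CPM in the NC libraries. Each was below both NC libraries in both PC3 circRNA libraries and above them in both DU145 ones. MT-TL2 had 28.0 CPM with circ0003553 and 31.6 CPM with circ0004592 in PC3, against 43.5 and 36.3 CPM in the NC libraries. In DU145, MT-TL2 had 34.1 CPM with circ0003553 and 31.5 CPM with circ0004592, against 21.3 and 22.0 CPM in the NC libraries. Their changes with circ0003553 were -0.49 ± 0.10, -0.44 ± 0.09 and -0.48 ± 0.10 in PC3 and 0.56 ± 0.09, 0.58 ± 0.09 and 0.63 ± 0.10 in DU145. MT-TR had 41.9 CPM with circ0003553 and 52.0 CPM with circ0004592 in PC3, against 65.0 and 57.7 CPM in the NC libraries. In DU145, MT-TR had 49.6 CPM with circ0003553 and 53.3 CPM with circ0004592, against 37.7 and 35.5 CPM in the NC libraries. MT-TR, the arginine tRNA between MT-ND3 and MT-ND4L, had 0.41 ± 0.08 and 0.60 ± 0.08 with circ0003553 and circ0004592 in DU145. Over the 14 plus-strand tRNAs with circ0004592 in DU145, 11 rose, with a median change of 0.59, while 4 of the 12 plus-strand messages rose, with a median of 0.13.

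Several of these tRNA calls were lost when 1 control library was left out, which also left fewer libraries to estimate the spread. In PC3 with circ0004592, without the RCAN3-arm NC, the values of MT-TI (-0.25), MT-TD (-0.26), MT-TG (-0.14), MT-TR (-0.12), MT-TH (-0.11), MT-TS2 (-0.11) and MT-TL2 (-0.17) did not pass. Without the STK3-arm NC, MT-TW (-0.26) did not pass and MT-TH had -0.46. In PC3 with circ0003553, without the RCAN3-arm NC, MT-TM (-0.46) did not pass, and MT-TH and MT-TS2 had -0.30 and -0.29. In DU145 with circ0003553, MT-TI, MT-TM and MT-TD did not pass when either NC library was left out, nor did MT-TH (0.50) without the RCAN3-arm NC and MT-TR (0.37) without the STK3-arm NC. In DU145 with circ0004592, MT-TM did not pass when either NC library was left out, nor did MT-TI (0.52) without the STK3-arm NC. A lost call did not always go with a smaller change. In PC3 with circ0004592, MT-TG, MT-TH, MT-TI, MT-TL2, MT-TR and MT-TS2 also lost their calls without either DU145 NC library, at nearly unchanged values (MT-TI -0.35). In DU145 with circ0003553, MT-TD and MT-TM had larger changes without the RCAN3-arm NC (0.41 and 0.61) than with both NC libraries (0.38 and 0.58).

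On the minus strand, a run of 4 tRNA genes within MT:5587-5891, MT-TA, MT-TN, MT-TC and MT-TY, changed least of the tRNAs in PC3 with circ0003553, apart from MT-TV. They carry alanine, asparagine, cysteine and tyrosine. MT-TA had 158 CPM with circ0003553 and 158 CPM with circ0004592 in PC3, against 187 and 201 CPM in the NC libraries. MT-TN had 209 CPM with circ0003553 and 217 CPM with circ0004592 in PC3, against 247 and 259.7 CPM in the NC libraries. Both circRNA libraries lay below both NC libraries for these genes. MT-TC had 269.8 CPM with circ0003553 and 291 CPM with circ0004592 in PC3, against 315 and 339 CPM in the NC libraries. MT-TY had 219 CPM with circ0003553 and 238 CPM with circ0004592 in PC3, against 259 and 279 CPM in the NC libraries. Their changes were -0.26 ± 0.06, -0.24 ± 0.06, -0.24 ± 0.06 and -0.26 ± 0.06 with circ0003553, all past the threshold, between plus-strand neighbours MT-TW at -0.50 ± 0.10 and MT-CO1 at -0.60 ± 0.05. With circ0004592 in PC3, MT-TA and MT-TN passed (-0.28 ± 0.06 and -0.21 ± 0.06), and MT-TC and MT-TY had -0.15 ± 0.06 and -0.16 ± 0.06, which did not. In DU145, MT-TA had 216 CPM with circ0003553 and 190.2 CPM with circ0004592, against 172 and 183 CPM in the NC libraries. In DU145, MT-TN had 294 CPM with circ0003553 and 253 CPM with circ0004592, against 237 and 258 CPM in the NC libraries. In DU145 all 4 rose with circ0003553 and none passed with circ0004592. In DU145, MT-TC had 407 CPM with circ0003553 and 337 CPM with circ0004592, against 321 and 355 CPM in the NC libraries. In DU145, MT-TY had 352 CPM with circ0003553 and 289 CPM with circ0004592, against 273 and 296 CPM in the NC libraries. The rises with circ0003553 in DU145 were 0.26 ± 0.06, 0.22 ± 0.06, 0.24 ± 0.06 and 0.28 ± 0.06, and the values with circ0004592 were 0.05 to 0.16. Without the RCAN3-arm NC of DU145, the rises with circ0003553 were 0.21, 0.16, 0.16 and 0.22, and none of the 4 passed.

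MT-TP, the first gene of the light-strand transcript, had the largest change of the minus-strand tRNAs with circ0003553 in each line. MT-TP had 21.4 CPM with circ0003553 and 30.0 CPM with circ0004592 in PC3, against 39.0 and 42.5 CPM in the NC libraries. In DU145, MT-TP had 29.7 CPM with circ0003553 and 17.0 CPM with circ0004592, against 15.2 and 16.5 CPM in the NC libraries. Its changes with circ0003553 were -0.90 ± 0.10 in PC3 and 0.88 ± 0.09 in DU145, the largest rise of the 37 genes there, and with circ0004592 -0.42 ± 0.09 in PC3 and 0.16 ± 0.10 in DU145, the last not past the threshold. MT-TE had 24.3 CPM with circ0003553 and 33.0 CPM with circ0004592 in PC3, against 39.8 and 40.7 CPM in the NC libraries. In DU145, MT-TE had 56.6 CPM with circ0003553 and 41.9 CPM with circ0004592, against 39.5 and 41.1 CPM in the NC libraries. MT-TE (MT:14674-14742), the glutamate tRNA beside MT-ND6 on the same strand, had -0.69 ± 0.09 and 0.46 ± 0.07 with circ0003553 in PC3 and DU145. MT-TS1 had 40.0 CPM with circ0003553 and 54.9 CPM with circ0004592 in PC3, against 64.2 and 67.1 CPM in the NC libraries. In DU145, MT-TS1 had 67.6 CPM with circ0003553 and 43.1 CPM with circ0004592, against 42.0 and 43.3 CPM in the NC libraries. MT-TS1 (MT:7446-7514), a serine tRNA gene that lies on the minus strand just after MT-CO1, had -0.68 ± 0.08 and 0.64 ± 0.07 with circ0003553, near MT-CO1 at -0.60 ± 0.05 and 0.45 ± 0.05. MT-TQ had 7.38 CPM with circ0003553 and 8.82 CPM with circ0004592 in PC3, against 12.2 and 11.0 CPM in the NC libraries. In DU145, MT-TQ had 10.1 CPM with circ0003553 and 11.1 CPM with circ0004592, against 7.28 and 7.34 CPM in the NC libraries. MT-TQ (MT:4329-4400), the glutamine tRNA, overlaps the end of MT-TI on the other strand, and both rose in DU145 with circ0004592, by 0.66 ± 0.14 and 0.53 ± 0.11. It was the one minus-strand tRNA of 8 that passed in that comparison, and it did not pass without the STK3-arm NC (0.67). With circ0003553 in DU145, MT-TQ did not pass when either NC library was left out (0.43 and 0.45). In PC3 with circ0004592, MT-TS1 did not pass without the STK3-arm NC (-0.21).

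Along the plus strand the changes in PC3 went down with distance from the start of the heavy-strand transcript. With circ0003553 in PC3, the first genes had 1.02 (MT-TF), 0.29 (MT-RNR1), 0.06 (MT-TV), -0.21 (MT-RNR2), -0.33 (MT-TL1) and -0.55 (MT-ND1). With circ0004592 the same genes had 1.54, 0.60, 0.09, -0.02, 0.05 and -0.18. The steepest part thus lay over the ribosomal RNA region in each comparison. It rests on MT-TF, which is low in counts, and on ribosomal RNAs, whose removal before library preparation may differ between libraries. The part of that removal was not tested. Over the 12 plus-strand messages, position and log2 change had Spearman's rho of -0.685 and Pearson's r of -0.788 with circ0003553 in PC3, and -0.664 and -0.801 with circ0004592. In DU145 the same values were -0.217 and -0.247 with circ0003553 and -0.035 and -0.151 with circ0004592. The tRNAs ran the other way there, with rho of 0.741 and r of 0.668 over the 14 plus-strand tRNAs with circ0003553 in DU145, and 0.429 and 0.235 with circ0004592. In PC3 the same tRNAs had rho of -0.169 and r of -0.515 with circ0003553, and -0.240 and -0.536 with circ0004592. Over the 24 plus-strand genes after MT-RNR2, tRNAs included, rho was -0.0896 with circ0003553 and -0.246 with circ0004592 in PC3, so the order held among messages and was weak once tRNAs were counted. These are descriptions across genes that share libraries, a primary transcript and, in part, reads, so they carry no p, and the 2 PC3 comparisons share their NC libraries.

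**Figure D3:**
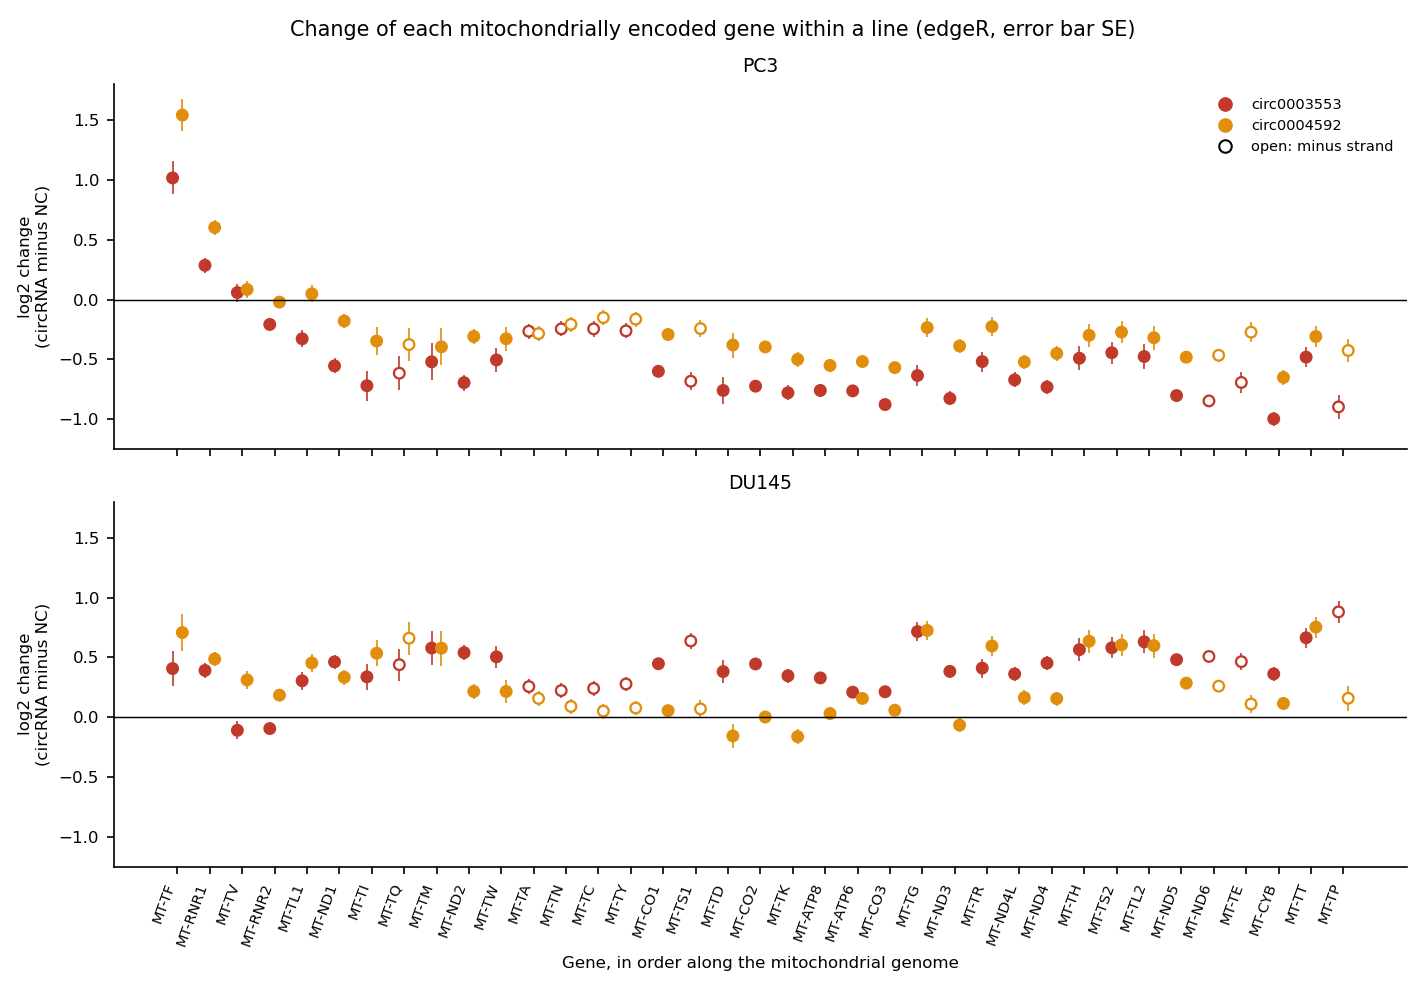
Log2 change (circRNA minus NC, vertical axis; error bars are SE from edgeR) of all 37 genes in order along the mitochondrial genome, in PC3 (top) and DU145 (bottom), with minus-strand genes as open circles. In PC3 the values ran down to -1.00 (circ0003553) and -0.65 (circ0004592) at MT-CYB after the rise at MT-TF, and the open circles at MT-TA, MT-TN, MT-TC and MT-TY stood above their neighbours with circ0003553. In DU145 nearly all points lay above zero.

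Ratios of counts within a library do not depend on how libraries are scaled. The genes set over each other were taken from the ends of the order just described, so the ratios restate those changes library by library. The ratio of MT-RNR1 to MT-CYB was 0.158 with circ0003553 and 0.155 with circ0004592 in PC3, against 0.0617 and 0.0683 in the RCAN3-arm and STK3-arm NC. In DU145 it was 0.0630 with circ0003553 and 0.0800 with circ0004592, against 0.0669 and 0.0572 in the NC libraries. The PC3 circRNA libraries thus lay above every other library in the series, and the DU145 library with circ0003553 lay between its NC libraries. The ratio of MT-RNR2 to MT-CYB was 8.09 and 7.24 in PC3 with circ0003553 and circ0004592, against 4.74 and 4.62 in the NC libraries. In DU145 that ratio was 2.38 with circ0003553 and 3.43 with circ0004592, against 3.57 and 3.01 in the NC libraries. The ratio of MT-TF to MT-TT was 0.466 and 0.595 in the PC3 circRNA libraries, against 0.151 and 0.178 in the PC3 NC libraries, and 0.241 and 0.280 in the DU145 circRNA libraries, against 0.278 and 0.300 in the DU145 NC libraries. Ratios carry no test here.

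**Figure D4:**
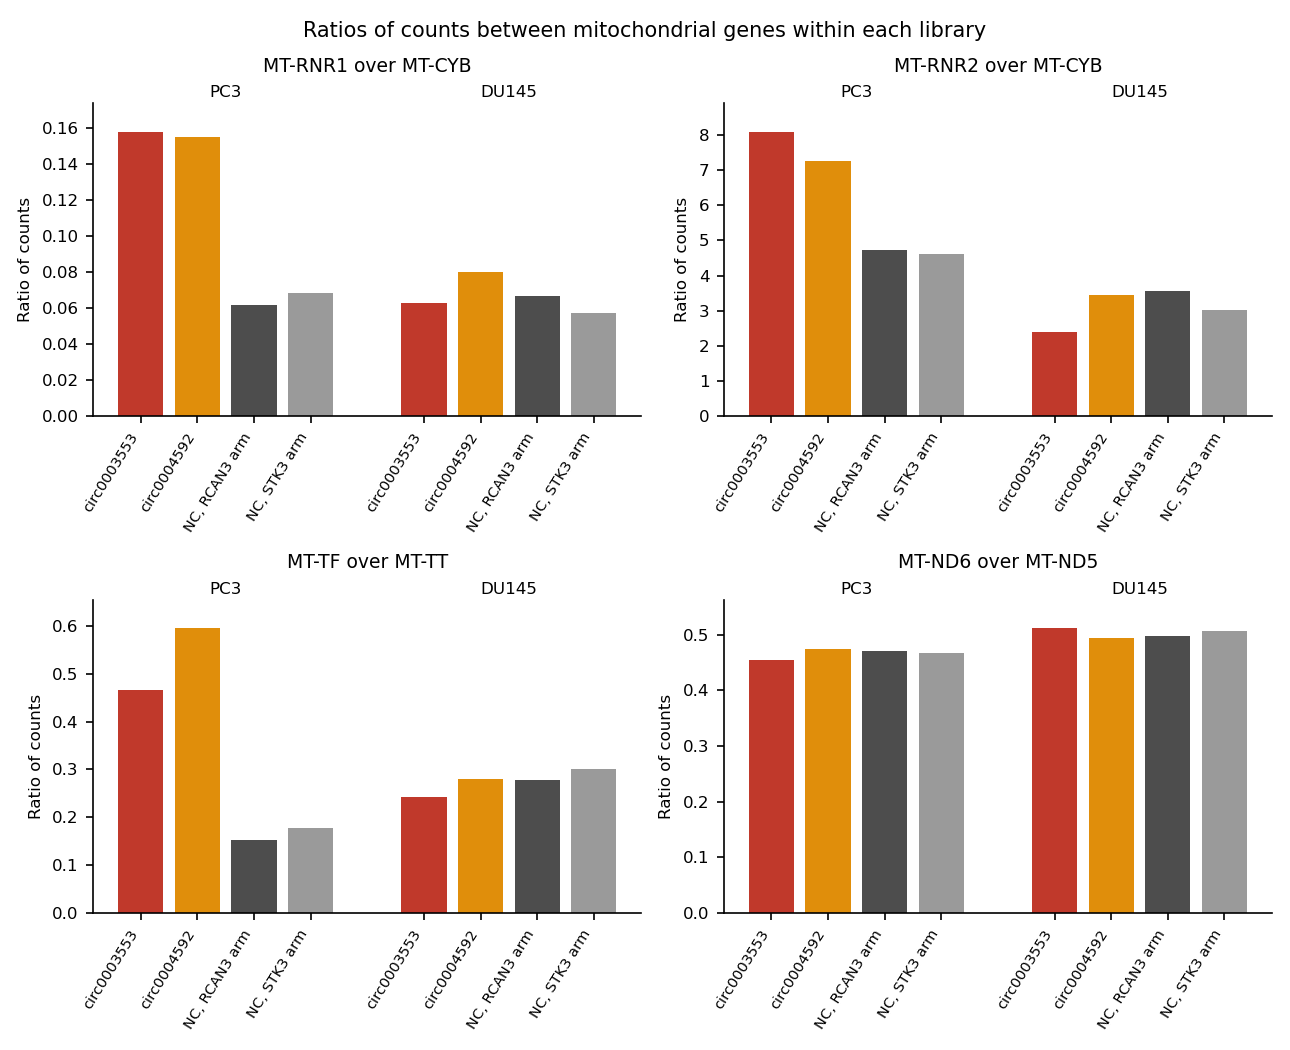
Ratios of counts within each library (vertical axes, from 0) for MT-RNR1 over MT-CYB, MT-RNR2 over MT-CYB, MT-TF over MT-TT and MT-ND6 over MT-ND5, 1 bar per library with circRNA libraries left of the NC libraries of the same line. The first 3 ratios stood higher in both PC3 circRNA libraries than in the PC3 NC libraries (MT-RNR1 over MT-CYB at 0.158 and 0.155, against 0.0617 and 0.0683), and the ratio of MT-ND6 to MT-ND5, neighbours on opposite strands, lay between 0.455 and 0.512 in all 8.

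The change with a circRNA differed between the lines. This was tested as the interaction, the change in PC3 minus the change in DU145. For circ0003553, 34 of the 37 genes passed, 33 with a lower change in PC3 and 1, MT-TF, with a higher one, where 22.6% of all genes tested passed (10.5% lower and 12.1% higher). The interaction of the 13 messages lay between -1.36 (MT-CYB) and -0.97 (MT-ATP6), and all 13 passed. MT-TP had -1.78 ± 0.14, the largest interaction of the 37, and MT-TF 0.61 ± 0.20 (edgeR adjusted p = 3.64e-10 and 0.0319). For circ0004592, 32 passed, 31 lower in PC3 and MT-TF higher (0.84 ± 0.20), where 20.3% of all genes passed (10.5% lower and 9.79% higher), and 10 members passed with limma on log2(RPKM + 0.1), as did 9.06% of all genes. The messages lay between -0.77 (MT-ND5) and -0.32 (MT-ND3), and MT-TT had the largest interaction (-1.06 ± 0.12). MT-RNR1, which rose in both lines with each circRNA, had interactions of -0.10 ± 0.09 and 0.12 ± 0.09 for circ0003553 and circ0004592, and neither passed. The call of MT-TF for circ0003553 was lost without the RCAN3-arm NC of PC3 (0.46) and when either NC library of DU145 was left out. For circ0004592, 6 of the 32 calls were lost without 1 control library or another, those of MT-RNR2, MT-TE, MT-TL1, MT-TN, MT-TS1 and MT-TW. With the lines as replicates and each circRNA library set against the NC of its own line and arm, 0 of the 37 genes passed in edgeR for either circRNA, where 0% of all genes passed. There, 2 members had an unadjusted p under 0.05 for each circRNA, MT-TF and MT-RNR1, among 519 of all genes for circ0003553 and 542 for circ0004592. In the same design DESeq2 called 0 members and 0.0615% of all genes for circ0003553. For circ0004592 it called 1 member and 0.0727% of all genes.

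The circRNA libraries of a line were also compared with each other, 1 library against 1, with the spread taken from the NC libraries. In PC3, circ0003553 minus circ0004592 gave 10 of the 37 genes past the threshold, all 10 lower, where 20 of 17877 genes (0.112%) passed, 0.0839% lower and 0.028% higher. The 10 were MT-ND1, MT-ND2, MT-ND3, MT-ND5, MT-ND6, MT-CO1, MT-CO2, MT-CO3, MT-CYB and MT-TS1. MT-ND3 had the largest difference of the messages (-0.44 ± 0.07) and MT-CO1 had -0.31 ± 0.05, while MT-RNR2 had -0.19 ± 0.05 and did not pass. The number rested on the control libraries and on the settings. With library totals in place of TMM, 6 members and 0.0615% of all genes passed. With limma on log2(RPKM + 0.1), 0 members and 0 of all genes passed. With either NC library of PC3 left out, more members passed, and more of all genes passed as well. In DU145, circ0003553 minus circ0004592 gave 16 past the threshold, 14 higher and 2 lower, where 13.9% of all genes passed (5.53% higher and 8.39% lower), and 0 members and 0 of all genes with limma on log2(RPKM + 0.1). The 2 lower ones were MT-TV (-0.42 ± 0.09) and MT-RNR2 (-0.28 ± 0.05), and the 14 higher ones held 9 messages, led by MT-ND3 (0.45 ± 0.07) and MT-CO2 (0.44 ± 0.06), and 5 tRNAs, led by MT-TP (0.72 ± 0.11).

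The lines differed before any circRNA was added. PC3 NC minus DU145 NC gave 31 of the 37 genes past the threshold, all 31 higher in PC3, where 82.6% of all genes passed (41.6% higher and 41.1% lower in PC3). All 13 messages and both ribosomal RNAs were higher in PC3, with MT-ND1 at 0.95 ± 0.05 and MT-CO2 at 0.26 ± 0.04 as the ends of the message range and MT-RNR2 at 0.86 ± 0.04. MT-TL1 had the largest difference (1.89 ± 0.06), with 198 and 183 CPM in the PC3 NC libraries, against 48.0 and 54.1 CPM in the DU145 NC libraries. MT-TT and MT-TP at the end of the gene array followed (1.36 ± 0.07 and 1.36 ± 0.08). The 6 genes that did not pass were tRNAs, MT-TI and MT-TD of the plus strand and MT-TN, MT-TC, MT-TY and MT-TE of the minus strand, with values between -0.09 (MT-TY) and 0.09 (MT-TI).

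Nuclear copies of mitochondrial genes can take reads from the genes described here. The files listed 141 such pseudogenes, of which 15 passed the filter on low counts, and together they held 0.219% to 0.379% of a library's counts. MTATP6P1 (chr1:633696-634376, plus strand), a copy of MT-ATP6, held 74.0% of these counts. It had 1578 and 1997 CPM in PC3 with circ0003553 and circ0004592, against 2814 and 2560 CPM in the PC3 NC libraries. In DU145 it had 2180 and 2563 CPM with circ0003553 and circ0004592, against 2143 and 2481 CPM in the NC libraries. Its log2 changes of -0.73 ± 0.07 and -0.41 ± 0.07 in PC3 with circ0003553 and circ0004592 passed, near those of MT-ATP6 (-0.76 and -0.52). With circ0003553 in DU145, MTATP6P1 had -0.11 ± 0.07, which did not pass, where MT-ATP6 rose by 0.21 ± 0.05. The ratio of MTATP6P1 to MT-ATP6 counts was 0.265 and 0.279 in the PC3 circRNA libraries, against 0.269 and 0.250 in the PC3 NC libraries, and 0.238 and 0.307 in the DU145 circRNA libraries, against 0.285 and 0.308 in the DU145 NC libraries. MTND2P28 (chr1:629640-630683), a copy of MT-ND2, averaged 535 CPM over the 8 libraries and changed by -0.66 with circ0003553 in PC3 and by 0.43 with circ0003553 in DU145, both past the threshold. MTCO1P12 (chr1:631074-632616), a copy of MT-CO1, had 96.8 CPM with circ0003553 and 128 CPM with circ0004592 in PC3, against 133 and 233 CPM in the NC libraries, which lay far apart. In DU145 it had 227 and 105 CPM with circ0003553 and circ0004592, against 161 and 116 CPM in the NC libraries. Its change of -0.88 with circ0003553 in PC3 passed but was -0.43 against the NC of the same arm alone, and its change of 0.68 with circ0003553 in DU145, which also passed, was 0.47 against that NC. How reads that match both a gene and its copy were assigned was not given in the sources used here, so the split between them is uncertain.

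Nuclear genes that act on the mitochondrial genome and its RNA were read from 7 lists of 64 genes, of which 63 were tested. In PC3 with circ0003553, 7 rose (11.1%), 6 fell (9.52%) and 50 did not pass, where 14.3% of all genes rose and 14.5% fell. With circ0004592 in PC3, 4 rose (6.35%), 4 fell (6.35%) and 55 did not pass, where 12.3% of all genes rose and 13.5% fell. In DU145 with circ0003553, 4 rose (6.35%) and 2 fell (3.17%), where 4.62% of all genes rose and 6.27% fell. With circ0004592 in DU145, 5 rose (7.94%) and 3 fell (4.76%), where 5.93% of all genes rose and 4.51% fell. These lists were not tested against all genes. Among decay genes, PNPT1, an exoribonuclease of the mitochondrion that is also known as an interferon-induced gene, had the largest change. Its level was 180.4 and 179 CPM in PC3 with circ0003553 and circ0004592, against 26.5 and 30.2 CPM in the NC libraries, and 74.2 and 62.3 CPM in DU145 with the circRNAs, against 59.7 and 67.2 CPM in the NC libraries. The PC3 circRNA libraries lay above every other library, with log2 changes of 2.71 ± 0.08 and 2.68 ± 0.08 (edgeR adjusted p = 2.53e-19 and 3.21e-19) in PC3 with circ0003553 and circ0004592, and values of 0.20 ± 0.08 and 0.03 ± 0.08 in DU145, which did not pass. The part of PNPT1 in the levels of the 37 genes was not tested. Also among decay genes in PC3, REXO2, which degrades short RNA, fell with both circRNAs (-0.22 and -0.28), and GRSF1, an RNA-binding protein of mitochondrial RNA granules, fell with circ0003553 (-0.23).

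Of the transcription genes, TFAM, which packages mitochondrial DNA and starts transcription, fell in PC3 with circ0003553 (-0.27 ± 0.07) and rose in DU145 with circ0003553 (0.24 ± 0.07). Its level was 48.9 and 53.2 CPM in PC3 with circ0003553 and circ0004592, against 60.0 and 60.9 CPM in the NC libraries, and 50.5 and 38.7 CPM in DU145 with the circRNAs, against 42.1 and 42.1 CPM in the NC libraries. POLRMT, the mitochondrial RNA polymerase, fell in DU145 with circ0003553 (-0.27), and MTERF2, of the mitochondrial terminator family, rose in PC3 with circ0003553 and circ0004592 (0.51 and 0.39) and fell in DU145 with circ0004592 (-0.39). NRF1, a nuclear transcription factor for respiratory genes, fell in PC3 with both circRNAs (-0.68 and -0.61), and in DU145 with circ0004592 the coactivators PPARGC1B and PPRC1 and the nuclear receptor ESRRA rose (0.46, 0.29 and 0.31). The SE of the machinery genes named here lay between 0.06 and 0.19. PPRC1 also rose in PC3 with circ0003553 (0.27), at 52.0 CPM, against 47.4 and 41.0 CPM in the NC libraries, and the change was 0.16 against the NC of the same arm alone.

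Of the replication genes, C10orf2, the helicase Twinkle, rose in PC3 with circ0003553 and circ0004592 (0.45 and 0.32), RNASEH1, which removes RNA primers, fell with both (-0.21 and -0.35), and the ligase gene LIG3 fell with circ0004592 (-0.33). In DU145, MGME1, an exonuclease, rose and TOP1MT, a topoisomerase, fell with circ0003553 (0.28 and -0.20), and POLG2, the accessory subunit of the DNA polymerase, fell with circ0004592 (-0.28). Of genes listed for cleavage of mitochondrial RNA, ELAC2, the 3′ tRNA nuclease, rose in PC3 with circ0003553 (0.23) and in DU145 with circ0004592 (0.25). TRMT10C, a subunit of the mitochondrial RNase P, and PTCD2, from the same list, rose in DU145 with circ0003553 (0.27 and 0.42). FASTK, of a family of RNA-binding proteins that steady mitochondrial messages, fell in PC3 with circ0003553 (-0.41), and its relative FASTKD1 fell in DU145 with circ0004592 (-0.66). Of modifying enzymes, CDK5RAP1, a tRNA methylthiotransferase, rose in PC3 with circ0003553 and circ0004592 (0.30 and 0.41), and MRM3, a methyltransferase of the large ribosomal RNA, rose in PC3 with circ0003553 (0.30) and in DU145 with circ0004592 (0.34).

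The nuclear genome encodes the other subunits of the respiratory chain. Of 76 nuclear subunit genes, 2 rose (2.63%) and 18 fell (23.7%) in PC3 with circ0003553, where 14.3% of all genes rose and 14.5% fell, and the median log2 change was -0.12. In PC3 with circ0004592, 1 rose (1.32%) and 13 fell (17.1%), where 12.3% of all genes rose and 13.5% fell (median -0.09). In DU145 with circ0003553, 2 rose (2.63%) and 10 fell (13.2%), where 4.62% of all genes rose and 6.27% fell (median -0.01). In DU145 with circ0004592, 2 rose (2.63%) and 1 fell (1.32%), where 5.93% of all genes rose and 4.51% fell (median 0.01). Of 76 proteins of the mitochondrial ribosome, 13 rose (17.1%) and 8 fell (10.5%) in PC3 with circ0003553, where 14.3% of all genes rose and 14.5% fell. With circ0004592 in PC3, 9 rose (11.8%) and 14 fell (18.4%), where 12.3% of all genes rose and 13.5% fell. In DU145 with circ0003553, 5 rose (6.58%) and 3 fell (3.95%), where 4.62% of all genes rose and 6.27% fell. With circ0004592 in DU145, 10 rose (13.2%) and 1 fell (1.32%), where 5.93% of all genes rose and 4.51% fell. Neither list was tested against all genes.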

How the data were processed

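RNA of 8 libraries was sequenced on a stranded kit after removal of ribosomal RNA, per the labels' protocols. The authors deposited a table of read counts per gene and one of RPKM values for each arm, and the submitters' processing notes name Trimmomatic 0.36, featureCounts, Subread 1.5.1, edgeR 3.12.1 and hg38. The aligner, annotation, strand setting and any use of UMIs were not given in the sources used here. Counts are not normalized, and the deposited RPKM values are relative to gene length and library size.

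The arms were joined by gene symbol, giving 36779 genes (31268 in both tables and 5511 in 1, at 14 counts or fewer), with absent genes set to 0. Genes with at least 1 CPM in at least 2 libraries (17877) were fitted with edgeR 4.0.16 (quasi-likelihood, TMM scaling, 6 groups of line and treatment, 2 residual and 21.1 prior degrees of freedom), and p-values were adjusted over all of them. The fit of both lines used line and arm as a block. SE is the absolute log2 change over the square root of F. Alternatives used DESeq2 1.42.0, limma 3.58.1 on log2(RPKM + 0.1), other scalings, filters of 0 and 5 CPM, an arm term and leaving out each NC library. Tables and figures were made with Python 3.11.15, pandas 2.3.3, numpy 2.4.6 and scipy 1.17.1 and the fits with R 4.3.3. The edgeR script was tested on simulated data.

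Every MT- gene is accounted for. Up to 3 machinery genes per role and comparison, past the threshold and by size of change, and the 3 pseudogenes of highest mean CPM are named. The members and lists were chosen with earlier results of these data known. Anticodons were found in 19 of the 22 tRNAs by a search for a stem of at least 4 pairs. Coordinates are those of GRCh38 and were the same in the files and in GENCODE 29 for all 37 genes. Depth was 33444940 to 49926342 counts per library. Among genes at 1 to 20 counts, 64.9% to 66.1% of counts were even, so counts may not be independent molecules. Between the NC libraries of a line, the mean chi-square per gene was 4.31 in PC3 and 4.75 in DU145, so none were treated as repeats of 1 library.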

Additional observations from a re-analysis of the deposited data

Results flagged for a closer look

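The change with a circRNA differed between PC3 and DU145 for most mitochondrially encoded genes, by edgeR's interaction test. For circ0003553, 34 of the 37 genes passed, where 22.6% of all genes tested passed. Among the messages of complex I, the change in PC3 minus the change in DU145 was -1.02 for MT-ND1, -1.23 for MT-ND2, -1.21 for MT-ND3, -1.03 for MT-ND4L, -1.18 for MT-ND4, -1.28 for MT-ND5 and -1.35 for MT-ND6 on the log2 scale. It was -1.36 for MT-CYB of complex III. For complex IV it was -1.05 for MT-CO1, -1.17 for MT-CO2 and -1.09 for MT-CO3, and for complex V -1.09 for MT-ATP8 and -0.97 for MT-ATP6.

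For circ0004592, 32 of the 37 genes passed the interaction test. The values were -0.51 for MT-ND1, -0.52 for MT-ND2, -0.32 for MT-ND3, -0.68 for MT-ND4L, -0.60 for MT-ND4, -0.77 for MT-ND5 and -0.72 for MT-ND6. They were -0.76 for MT-CYB, -0.35 for MT-CO1, -0.40 for MT-CO2, -0.63 for MT-CO3, -0.58 for MT-ATP8 and -0.67 for MT-ATP6. MT-RNR2 had -0.20, which did not pass without the RCAN3-arm NC of PC3 (-0.16) or without the STK3-arm NC of DU145 (-0.17). Each circRNA had 1 library per line, so these differences rest on the spread between the NC libraries.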

How the results depend on the processing

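Counts of the 37 genes past the threshold stayed within 1.5 times the main count under the other settings run, with these exceptions. DESeq2 called 15 in PC3 with circ0004592 and 12.7% of all genes (30 and 25.7% in edgeR). For circ0004592 over both lines it called 1 and 0.0727% of all genes (0 and 0% in edgeR). With limma on log2(RPKM + 0.1), 18 passed in PC3 with circ0004592 (14.8% of all genes) and 10 in the interaction for circ0004592 (9.06% of all genes). It gave 0 in each DU145 comparison with NC and 0 between the circRNAs in PC3 and in DU145. Where it gave 0, it called 0 of all genes. Between the circRNAs in PC3 (10, and 0.112% of all genes), 6 passed with library totals (0.0615% of all genes). There, 18 passed with no filter (0.163%) and 6 with a filter of 5 CPM (0.0824%). More than 1.5 times the main count passed there with either PC3 NC library left out, where more of all genes passed too. No named value changed sign past the threshold. The causes were not tested.

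Leaving out each NC library in turn gave 35 to 36 genes in PC3 with circ0003553, 24 to 29 in PC3 with circ0004592, 23 to 35 in DU145 with circ0003553 and 14 to 22 in DU145 with circ0004592. It gave 33 to 34 and 28 to 33 in the interactions for circ0003553 and circ0004592, 7 to 19 between the circRNAs in PC3, 16 to 21 between them in DU145, 30 to 31 between the lines, and 0 to 0 over both lines for each circRNA. Library totals moved the split of all genes to 957 higher and 816 lower (826 and 1121 with TMM) in DU145 with circ0003553 and to 594 and 1247 (1060 and 806) with circ0004592. They moved it to 1717 and 2253 (2170 and 1877) in the interaction for circ0003553 and to 1666 and 784 (989 and 1499) between the circRNAs in DU145. The titles tie each circRNA library to the NC of its arm. With arm as a term, 27 members and 22.9% of all genes passed in PC3 with circ0004592, against 25.7% of all genes without it. MT-TG, MT-TI, MT-TL2, MT-TR and MT-TS2 were lost there, and MT-TC and MT-TY gained. In DU145 with circ0003553, 34 members and 10.6% of all genes passed with the term, against 10.9% of all genes without it. MT-TI and MT-TQ were lost there, and MT-TF and MT-RNR2 gained. In DU145 with circ0004592, MT-ND4 and MT-ND4L were gained. With 1 library per circRNA and line, these comparisons have no replicate of the circRNA.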
